A study of Mus musculus with 38 samples.

Results

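The older L1 copies are the mouse LINE-1 (L1) elements outside the youngest, L1Md, group. They were taken as every transposable element (TE) subfamily of family L1 whose name does not begin with L1Md_, together with every individual copy of those subfamilies. This gave 127 of the 1153 TE subfamilies and 778556 of the 3494634 individual TE copies. The L1Md group, which was left out, has 6 subfamilies and 126672 copies. RNA-seq of 32 libraries in 5 experiments compared Trim28-KO with control samples, and the question was whether RNA from older L1 copies changed when the co-repressor gene Trim28 was disrupted in neural progenitor cells (NPCs), in adult neurons or in the developing cortex.

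L1 elements copy themselves through an RNA intermediate that is written back into DNA by their own reverse transcriptase, and most insertions lack the 5′ end and with it the L1 promoter. L1Md elements are the group that still moves in mice. The L1_Mus, L1_Mur, L1_Mm and L1VL names belong to older murine elements, the Lx names to elements spread earlier in rodent evolution, and the L1M names to elements shared widely among mammals, while HAL1 elements are relatives of L1 that keep only the first reading frame. Trim28 is brought to TEs by KRAB zinc finger proteins and recruits the histone methyltransferase Setdb1, which lays down H3K9me3, and L1 promoters are also silenced by methylation of cytosine in CG dinucleotides. By these names the members were 182675 murine, 346814 Lx, 11315 L1_Rod, 227808 mammalian (L1M or L1P), 9892 HAL1 and 52 other copies. They were mostly fragments, with a median length of 275 bases against 742 for L1Md copies, and only 2163 members exceeded 5000 bases. Of all members, 580249 had no uniquely mapped read in any of the 32 libraries.

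In the NPC experiment, Rosa26-Cas9 knock-in cultures from the forebrain of embryos at day 13.5 received lentiviral guides against Trim28 (g3, g4 or g13, with 2 cultures each) or against lacZ (2 cultures), and RFP-positive cells were sorted 10 days later. In the Cas experiment, Cas9-GFP mice received AAV guides in the striatum with a nuclear reporter under the synapsin promoter, and sorted neuronal nuclei were collected after 2 months from 4 Trim28-KO animals (1 each for g13, g3, g4 and the combined set of guides) and 1 lacZ animal. The StopCas experiment had the same guides and numbers in Stop-Cas9-GFP mice, in which Cre under the synapsin promoter switches Cas9 on. The flox experiment used sorted neuronal nuclei of adult Trim28-flox mice, +/- and +/+, whose forebrain had received AAV vectors for Cre and for nuclear GFP, each driven by synapsin, also 2 months before. It has 4 libraries labelled KO, the +/+ genotype by the study's account, and 4 labelled control, and the labels give neither genotype nor vector for a single library. The Emx experiment compared cortex of 3 Trim28-KO (Emx1-Cre +/-, Trim28-fl +/+) with 3 control animals (Emx1-Cre +/-, Trim28-fl +/-) at 3 months. By this genotype the controls also carried Cre and 1 excised allele, whereas a figure legend of the paper calls the control littermates Cre-negative. Emx1-Cre acts in progenitors of the dorsal forebrain, so microglia and other cortical cells of other origin kept Trim28. In this bulk RNA, fewer cells of a type and less RNA per cell cannot be told apart.

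The 5′ ends of 8 copies, which carry the results below, are given here from the GRCm38.p6 genome in the sense of each copy, with capitals on each CG dinucleotide. L1_Mur2_dup7199, L1M5_dup8664, Lx8_dup17864 and L1_Rod_dup9685 were higher in Trim28-KO NPCs and again in Trim28-KO cortex. Lx5b_dup1951 and L1MB8_dup1833 were higher in Trim28-KO cortex, and Lx5b_dup6681 and L1VL4_dup4674 in both Cas9 lines. The stretches are chr6:90296787-90297086 (-), chr9:102500302-102500492 (+), chr6:147167206-147167505 (-), chr15:89747644-89747943 (+), chr4:153624347-153624646 (-), chr6:70985059-70985220 (-), chr15:15741436-15741735 (+) and chr13:70253987-70254286 (+).
L1_Mur2_dup7199: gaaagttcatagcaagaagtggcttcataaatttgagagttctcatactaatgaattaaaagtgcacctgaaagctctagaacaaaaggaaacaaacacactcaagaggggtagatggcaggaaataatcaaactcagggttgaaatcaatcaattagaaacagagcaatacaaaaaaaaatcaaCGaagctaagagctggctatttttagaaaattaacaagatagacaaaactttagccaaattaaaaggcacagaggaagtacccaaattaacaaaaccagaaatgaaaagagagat
L1M5_dup8664: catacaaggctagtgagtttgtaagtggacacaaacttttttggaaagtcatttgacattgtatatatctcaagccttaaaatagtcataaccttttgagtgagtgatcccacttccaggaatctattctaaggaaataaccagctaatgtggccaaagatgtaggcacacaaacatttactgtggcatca
Lx8_dup17864: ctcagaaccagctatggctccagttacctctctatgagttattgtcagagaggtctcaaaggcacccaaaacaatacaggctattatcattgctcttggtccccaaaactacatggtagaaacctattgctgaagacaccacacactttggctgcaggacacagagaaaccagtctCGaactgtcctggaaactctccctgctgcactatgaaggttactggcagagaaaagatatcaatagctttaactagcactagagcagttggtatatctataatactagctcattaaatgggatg
L1_Rod_dup9685: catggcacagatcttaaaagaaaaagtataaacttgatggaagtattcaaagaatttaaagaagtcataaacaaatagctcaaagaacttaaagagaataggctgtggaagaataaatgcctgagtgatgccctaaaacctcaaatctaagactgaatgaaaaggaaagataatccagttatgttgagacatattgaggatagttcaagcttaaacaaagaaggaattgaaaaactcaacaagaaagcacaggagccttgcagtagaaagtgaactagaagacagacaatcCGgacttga
Lx5b_dup1951: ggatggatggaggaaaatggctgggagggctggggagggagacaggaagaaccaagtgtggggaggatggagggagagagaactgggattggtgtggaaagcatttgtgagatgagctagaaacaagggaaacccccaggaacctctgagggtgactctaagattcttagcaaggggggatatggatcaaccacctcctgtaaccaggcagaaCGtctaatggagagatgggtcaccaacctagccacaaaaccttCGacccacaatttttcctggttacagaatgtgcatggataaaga
L1MB8_dup1833: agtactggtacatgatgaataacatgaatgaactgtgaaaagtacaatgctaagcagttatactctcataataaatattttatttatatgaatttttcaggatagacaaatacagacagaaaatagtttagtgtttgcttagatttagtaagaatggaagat
Lx5b_dup6681: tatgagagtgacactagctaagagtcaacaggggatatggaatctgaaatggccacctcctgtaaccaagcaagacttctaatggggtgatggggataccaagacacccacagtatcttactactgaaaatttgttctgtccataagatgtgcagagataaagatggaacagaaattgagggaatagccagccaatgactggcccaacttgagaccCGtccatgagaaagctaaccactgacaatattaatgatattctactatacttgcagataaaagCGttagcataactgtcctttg
L1VL4_dup4674: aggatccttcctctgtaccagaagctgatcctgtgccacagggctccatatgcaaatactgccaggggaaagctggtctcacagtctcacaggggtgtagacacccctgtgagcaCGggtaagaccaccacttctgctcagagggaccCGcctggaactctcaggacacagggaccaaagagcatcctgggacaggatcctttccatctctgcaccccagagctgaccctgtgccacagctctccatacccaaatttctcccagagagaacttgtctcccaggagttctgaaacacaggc

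CG dinucleotides, which read the same on both strands, were sparse in these stretches. L1M5_dup8664 and L1MB8_dup1833 held 0, the L1_Mur2, Lx8 and L1_Rod copies held 1 each, and both Lx5b copies and L1VL4_dup4674 held 2 each. Of 10503 tested older L1 copies of at least 300 bases, 76.9% held at least 1 CG in their first 300 bases and the median was 1. Over whole copies, those called higher in NPCs had a median of 0.362 CG per 100 bases against 0.520 in tested copies that were not called. In Emx cortex the medians were 0.495 and 0.484. These are descriptions of sequence and not a measure of methylation.

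Library depth ranged from 8790346 to 25345083 gene reads, and 92447 to 536286 reads fell uniquely on older L1 copies. CPM below are read counts scaled by the normalized gene library size (edgeR's counts per megaread) unless stated otherwise. Nothing in the labels says whether cultures came from separate embryos, so p-values measure the spread between these samples. For copies at 0 in all controls, the fold is a lower bound from 3 reads per control library, and the fitted value depends on the prior. Trim28 itself was first checked in every group. It lay between 157 and 207 CPM in the NPC controls and between 36.1 and 73 CPM in the 6 KO cultures, a log2 fold change of -1.83 ± 0.25 (SE; edgeR quasi-likelihood test, adjusted p = 0.031). In Emx cortex it fell from 19.0 to 21.6 CPM to 6.10 to 8.65 CPM, by 1.42 on the log2 scale (adjusted p = 0.00016). The Cas control had 142 CPM and the KO animals 93.8 to 105 CPM (log2 fold change -0.51, adjusted p = 0.42), and the StopCas control had 105 CPM within the KO range of 88.5 to 127 CPM (adjusted p = 1.0). For both Cas9 lines the paper reported efficient editing by amplicon sequencing and loss of Trim28 protein in neurons by immunohistochemistry. The RNA values here measure neither. In flox the libraries labelled control had 25.5 to 31.8 CPM and those labelled KO 130 to 145 CPM (log2 fold change 2.26, adjusted p = 2.9e-06). Trim28 therefore went against the labels in flox, and every flox direction below is given between libraries as labelled. For flox the paper reported loss of the Trim28 transcript in sorted nuclei by RNA-seq, and loss of its protein in neurons of KO animals. The values by label are opposite to that report, and the cause was not tested. The tissues carried their own markers. The 4 progenitor markers summed to 1746 to 3174 CPM in NPC controls and 1511 to 3660 CPM in KO cultures, and the 4 neuronal markers to 1899 CPM in the Cas control and 1710 to 1806 CPM in its KO animals. In Emx the neuronal sum was 7047 to 7295 CPM in controls and 5667 to 7161 CPM in KO cortex. Of 33 cell type markers, 22 to 33 were tested per experiment and 1 was called, the meningeal transporter Slc6a13, which was lower in Emx KO cortex (log2 fold change -1.06, adjusted p = 0.041).

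Summed over subfamilies, older L1 made up a similar part of the TE signal in KO and control samples of most experiments. Subfamily counts share each multi-mapped read among its possible sources. Older L1 took 10.5% to 11.0% of TE subfamily counts in the NPC controls and 9.76% to 11.4% in the KO cultures. In Emx the share was 16.3% to 17.0% in controls and 15.4% to 15.8% in KO cortex, so the groups did not overlap. By uniquely mapped reads the Emx difference was not seen, with 14.3% to 15.2% in controls and 14.3% to 15.6% in KO cortex. In flox the libraries control-822 and KO-823 stood apart at 21.2% and 19.9%, against 14.2% to 15.7% in the other 6.

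**Figure D1:**
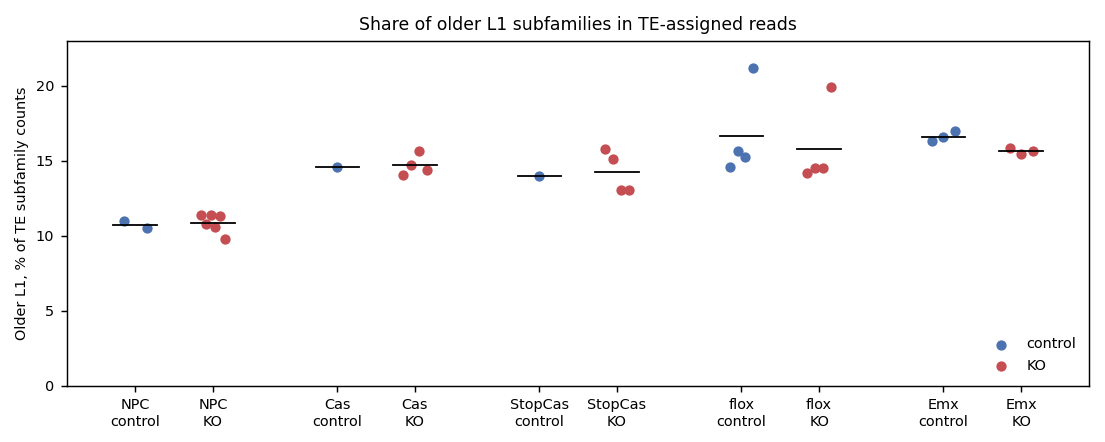
Share of older L1 subfamilies in all TE subfamily counts, in percent, for each library (points) of the 5 experiments, with the group mean as a line. Control and KO libraries overlap in NPC, StopCas and flox, the lone Cas control lies within its KO range, and in Emx the KO libraries lie at 15.4% to 15.8% below controls at 16.3% to 17.0%.

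At the level of subfamilies, only Lx5b passed the test (adjusted p under 0.05 and log2 fold change over 0.5). Of the 127 subfamilies, 111 were tested in NPC, 124 in Cas, 124 in StopCas, 117 in flox and 104 in Emx. None was called in the first 4 experiments, where 0.996%, 0.103%, 0% and 0% of all tested TE subfamilies were called higher. Unadjusted p under 0.05 was reached by 10, 10, 2 and 4 of them. Subfamilies were scaled to TE counts, so a rise shared by most TEs would not show. With library sizes of the gene rows, the older L1 median log2 fold change was 0.31 rather than 0.02 in NPC. In Cas it was 0.35 rather than 0.04, and in StopCas 0.11 rather than -0.01. In flox it was -0.11 rather than -0.10, and in Emx 0.04 rather than -0.03. With these sizes 4 Cas subfamilies were called higher. The most abundant subfamilies moved little, as with Lx7 in Emx, which had 23066 CPM of TE counts in controls and 23304 in KO cortex (log2 fold change 0.01). In Emx, 3.84% of all subfamilies were called higher and 0% lower, and Lx5b was the 1 older L1 subfamily among them.

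Lx5b counted 1097, 1143 and 1285 CPM of TE counts in the 3 Emx controls and 1916, 1880 and 1812 in the 3 KO animals. The groups did not overlap, and the log2 fold change was 0.67 ± 0.08 (SE; edgeR, adjusted p = 0.00025). This difference sat in a single copy by unique reads. Over all 7975 Lx5b copies, unique reads rose from 47.3 ± 3.85 to 62.0 ± 3.07 CPM (SD, n = 3 and 3), and without Lx5b_dup1951 the values were 47.3 ± 3.84 and 48.0 ± 3.13 CPM. Lx5b_dup1951 held 21.1% to 24.9% of the unique Lx5b reads in KO cortex and 0% to 0.087% in controls. Unique Lx5b reads outnumbered the subfamily counts in each of the 6 libraries, and the cause was not tested.

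**Figure D2:**
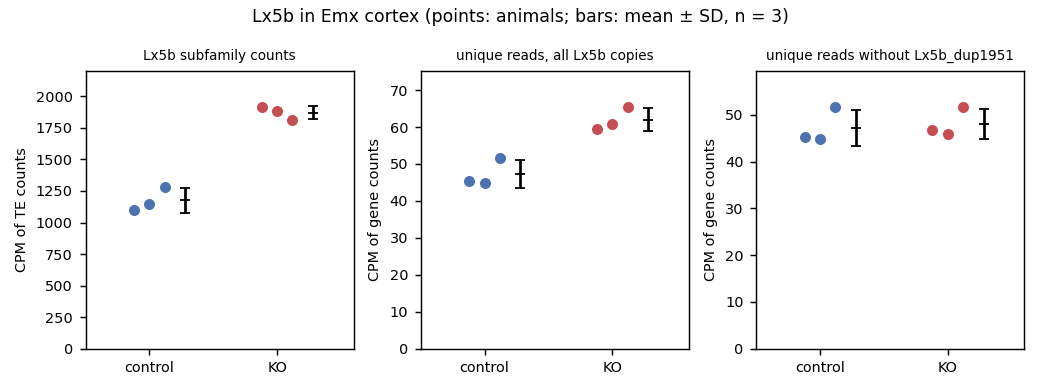
Lx5b in the 3 control and 3 KO cortices of the Emx experiment, as subfamily counts (CPM of TE counts), as unique reads summed over all 7975 copies, and as unique reads without Lx5b_dup1951 (both CPM of gene counts). Points are animals and bars the mean ± SD, and the groups separate in the first 2 panels but overlap at 47.3 and 48.0 CPM on average in the third.

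Lx5b_dup1951 (chr4:153623621-153624646, minus strand, 1026 bases, intergenic) had 0.037, 0 and 0.045 CPM in the controls and 12.9, 15.1 and 13.8 CPM in the KO animals. Its log2 fold change was 8.61 ± 0.34 (SE), from 2 against 701 reads, with adjusted p = 1.7e-18. The copy Lx9_dup12848 (chr4:153623426-153623615) follows it directly on the same strand. It had no read in the controls and 7.81, 6.09 and 4.25 CPM in the KO animals, at least 37.1-fold higher. Neither copy had a read in the NPC libraries.

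Individual copies in NPCs rose and did not fall. Of the 778556 members, 4349 had enough reads to be tested, and 59 were called higher and 0 lower. Among all 35091 tested TE copies 0.55% were called higher and 0% lower, and of the tested older L1 copies 1.36% and 0%. A copy silent in the controls could pass the filter on low counts only through its KO reads, so this share describes the calls and does not support them. The median log2 fold change was 0.25 over tested older L1 copies and 0.19 over all tested TE copies. With library sizes taken from TE copies rather than genes, the older L1 median was 0.05 and 48 copies were called, each of them also called before. The count moved most without lacZ-842 (15 copies), lacZ-867 (16) or KO-g3-870 (39), all of them among the 59. Without the other g3 culture it was 61, of which 54 were among the 59. With the pairing of cultures by number series in the model, 94 were called, the 59 included (1.11% of all TE copies higher and 0.037% lower).

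The calls by age group were 22 of 928 tested murine copies (2.37%), 25 of 1527 Lx copies (1.64%), 1 of 65 L1_Rod copies, 7 of 1750 mammalian copies (0.4%) and 4 of 77 HAL1 copies (5.19%). For comparison, 15 of 619 L1Md copies (2.42%) and 96 of 6832 LTR copies (1.41%), the class of the endogenous retroviruses, were called higher. These shares were not tested against each other. All 59 older L1 copies had every KO culture above both controls, and 36 had no control read. Their median length was 889 bases against 383 in all tested members, and 49 of the 59 (83.1%) were intergenic, against 17.0% of tested copies that were not called.

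Chained within 10 kb, the 59 copies formed 34 loci, 23 of them with a single copy, and there were 46 loci at 1 kb and 25 at 50 kb. Chained within 1000 kb they formed 18 regions, and 8 regions with 3 or more copies held 47 of them. The same chaining was not run on tested copies that were not called. The largest, chr13:22831515-23007529, held 11 copies of 9 subfamilies among vomeronasal receptor genes and pseudogenes such as Vmn1r211, which serve pheromone detection. All 11 were at 0 in both controls, and ranged from 0.286 to 8.69 CPM over the KO cultures. A region of chr2:150194048-150469225, which contains the zinc finger genes Zfp442 and Zfp937, also held 11 copies, and 2 of these had no control read. Others were chr15:89736512-89753390 and chr10:78837451-79009961, the latter with olfactory receptor genes, with 5 copies each.

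Within the chromosome 13 region, Lx3B_dup4582 (chr13:22993146-22994525, plus strand) had no read in either control, and 8.69 and 1.44 CPM in the g3 cultures, 5.18 and 1.39 in the g4 cultures and 3.33 and 1.05 in the g13 cultures. For each guide the culture of the first number series had the higher level. The copy was at least 21.8-fold higher in KO cultures (fitted log2 fold change 8.93 ± 1.62, SE, adjusted p = 0.021). Lx6_dup13687 (chr13:22831515-22832580, minus strand), at the other end of the region, was more even, with 1.31, 2.88, 1.77, 2.25, 2.58 and 2.86 CPM in the same order of cultures and none in the controls (at least 14.1-fold higher, adjusted p = 0.0008). Its neighbour L1_Mus3_dup37481 ranged from 1.43 to 2.99 CPM in KO cultures, again without a control read.

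L1_Mur2_dup7199 (chr6:90296317-90297086, minus strand, 770 bases) had the highest fitted fold change in NPCs. It was at 0 in both controls and at 6.91 and 7.63 CPM in the g3, 1.84 and 5.95 in the g4 and 3.16 and 3.72 in the g13 cultures. The groups did not overlap, and the mean was at least 30.2-fold higher (500 against 0 reads, fitted log2 fold change 9.39 ± 1.13, adjusted p = 0.0014). The copy lies in an exon of Gm43891, a gene model on the opposite strand. At least 1 copy of its group, chr6:90296317-90300528, adjoins or overlaps IAP1-MM_LTR_dup137, a retroviral LTR copy that was also called higher. Gm43891 had no read in NPC controls and 3.21 to 11.5 CPM in KO cultures (adjusted p = 0.018). Since the library marks strand, reads of L1_Mur2_dup7199 and of the gene model were counted apart.

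Lx10_dup1889 (chr3:133958875-133959498, minus strand) had no control read and 1.11 to 3.35 CPM in the KO cultures, and was at least 12.9-fold higher (adjusted p = 0.0019). It lies in an exon of the gene model Gm26691 on the same strand, and its reads cannot be told from those of that transcript. Gm26691 rose from 0.538 to 0.805 CPM to 6.65 to 14.5 CPM (log2 fold change 3.89, adjusted p = 0.016).

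In Trim28-KO cortex, older L1 copies moved in both directions. Of 2052 tested copies 62 were called higher and 15 lower, against 2.6% higher and 0.289% lower of all 14556 tested TE copies. The shares among older L1 copies were 3.02% and 0.731%. With library sizes from TE copies the counts were 55 and 23. Their median log2 fold change was -0.02, as over all TE copies. By age group, 21 of 402 murine (5.22%), 23 of 728 Lx (3.16%) and 16 of 863 mammalian copies (1.85%) were called higher, and 8, 5 and 2 lower. Of L1Md copies 6.61% were called higher and 0.826% lower, and of LTR copies 5.39% and 0.265%. The 62 higher copies had all 3 KO animals above all controls with the exception of L1_Mm_dup4278 in an intron of Jarid2, where 1 KO library reached 481 CPM and another had 7.35 CPM, against 8.28 to 23.8 CPM in controls. Of the 62, 40 (64.5%) were intergenic against 31.9% of tested copies that were not called, and 12 had no control read.

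Some of the largest changes in cortex were in neighbouring copies. Lx8_dup17864 (chr6:147166344-147167505, minus strand) was at 0 in all controls and at 5.30, 7.21 and 5.79 CPM in KO-60, KO-73 and KO-76, at least 37.4-fold higher (fitted log2 fold change 9.91 ± 0.53, adjusted p = 1.0e-14). Its neighbour L1_Mm_dup1929 (chr6:147163069-147165153) had 3.25, 3.89 and 2.24 CPM in the KO animals and no control read. On chromosome 9, L1_Mus1_dup12617 and L1_Mus1_dup12616 (chr9:5931413-5934512 together) had 2.79, 2.92 and 3.71 CPM and 2.68, 2.05 and 3.63 CPM in KO animals, with 0 in controls. These 4 copies overlap no annotated gene. L1MB8_dup1833, a mammalian fragment of 162 bases (chr6:70985059-70985220), was at 0 in controls and at 2.00, 1.28 and 1.62 CPM in KO animals (at least 10.0-fold higher, adjusted p = 3.4e-09). In NPCs it had 4 reads in KO cultures and none in controls, too few to be tested.

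L1_Mus1 was the older L1 subfamily with the most higher copies in cortex, with 10 of 94 tested. Of these, 7 lie on chromosome 12 between 18649990 and 24071327 and are 402 to 411 bases long, and 9 L1_Mus1 copies were tested there. Controls had at most 0.544 CPM and KO animals 0.618 to 2.24 CPM over the 7. L1_Mus1_dup19651 (chr12:23927988-23928396) had 91 KO and 2 control reads (log2 fold change 5.69, adjusted p = 3.7e-09). Over their 21 pairs the 7 copies are 88.8% to 99.5% identical, with a median of 93.9% and 2 to 46 edits. The split of reads between the most similar of them is uncertain. In all 6 NPC KO cultures L1_Mus1_dup19651 had 26 reads, too few to be tested.

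Other groups of higher copies in cortex lay within or beside genes. At chr18:37340489-37531188, within the cluster of protocadherin beta genes, which code for cell adhesion proteins of neurons, 4 copies of L1M4, L1M2, Lx3A and HAL1 had log2 fold changes of 1.08 to 2.78. They already had reads in the controls, up to 1.80 CPM, and reached 4.62 CPM in KO cortex. The L1M4 and Lx3A copies lie on the same strand within the gene models Gm42416, Gm37013 and Gm37388. The L1M2 and HAL1 copies lie opposite to Pcdhb14 and Pcdhb18. The part of host transcripts in these reads was not tested. The group chr6:90296317-90300528 held 4 copies, among them L1_Mur2_dup7199. Gm13245, which overlaps Lx_dup6212 on chromosome 4, rose from 0.055 to 0.739 CPM on average (log2 fold change 3.52, adjusted p = 0.008). Lx_dup6212 lies in an exon of Gm13245 on the same strand, and its reads cannot be told from those of that transcript.

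The 15 lower copies in cortex had smaller changes than most of the higher ones, with a median log2 fold change of -1.43 against 4.03. L1VL2_dup1393 (chr7:7261178-7262946, minus strand) fell furthest, from 0.846, 1.20 and 0.853 CPM in the controls to 0.114, 0.102 and 0 CPM in the KO animals (log2 fold change -3.48 ± 0.56, adjusted p = 4.4e-05). It lies in an intron of Gm45844 on the same strand, and that gene model fell from 1.77 to 0.583 CPM (log2 fold change -1.56, adjusted p = 0.012). L1_Mur3_dup13293 (chr9:79444389-79445042) fell from 1.69 to 2.18 CPM to 0.513 to 0.695 CPM, opposite to exons of Gm10635, which was also lower (log2 fold change -1.60, adjusted p = 0.0039). L1_Mus1_dup17463 (chr10:5474175-5479457), at 5283 bases the longest of them, fell from 1.80, 2.12 and 1.12 CPM to 0.798, 0.307 and 0.155 CPM in an intron of Syne1 (log2 fold change -1.92, adjusted p = 0.0011).

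L1MEi_dup274 (chr9:120179313-120179575) lies opposite to the exons of Mobp, which codes for a myelin protein of oligodendrocytes. It had 29.3 to 30.4 CPM in controls and 19.0 to 21.3 CPM in KO cortex (log2 fold change -0.57, adjusted p = 0.024). The 3 meningeal markers summed to 14.1 to 18.2 CPM in controls and 6.84 to 11.5 CPM in KO cortex. The part of other cell types in the lower copies was not tested. Without control-64, 7 copies were called lower, and 9 without KO-73.

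Copies called higher in NPCs and in cortex were compared directly, since the experiments share no sample. Both lists held 11 copies, 18.6% of the 59 and 17.7% of the 62. Of the 59 NPC copies, 13 had enough reads to be tested in Emx, all 13 with a positive log2 fold change, and 7 had no Emx read. Of the 62 Emx copies, 28 were tested in NPCs, 26 of them positive, and 15 had no NPC read. A copy silent in the controls could pass the filter only through its KO reads, which favours a positive sign. These signs therefore describe the tested copies and do not support the calls. The test of the difference between the KO effects called 0 of 5498 older L1 copies (edgeR, 239 at unadjusted p under 0.05), against 0% higher and 0.00497% lower in Emx of all TE copies, and DESeq2 called 2. Copies without a read in the controls of both experiments have no usable standard error in that model, so it does not test them.

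Among the 11, L1_Mur2_dup7199 had 4.73, 6.19 and 5.87 CPM in the KO cortices and 0 in the controls, at least 34.3-fold higher (adjusted p = 1.7e-14), close to its NPC level. Lx8_dup17864 was higher in cortex, at 5.30 to 7.21 CPM, than in NPCs, at 0.721 to 2.15 CPM. L1_Rod_dup9685 (chr15:89747644-89748083) went the other way, with 1.95 to 4.61 CPM in KO NPCs and 0.741, 0.665 and 1.00 CPM in KO cortex. The order of these levels between experiments is a description only, since the starting material, sorted cultured cells or cortex, differed. L1M5_dup8664 (chr9:102500302-102500492), a mammalian fragment of 191 bases, had 1.99, 1.81, 1.11, 0.924, 2.07 and 1.43 CPM in the KO NPC cultures and 0.969, 0.921 and 0.927 CPM in KO cortex, without a read in any control of either.

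**Figure D3:**
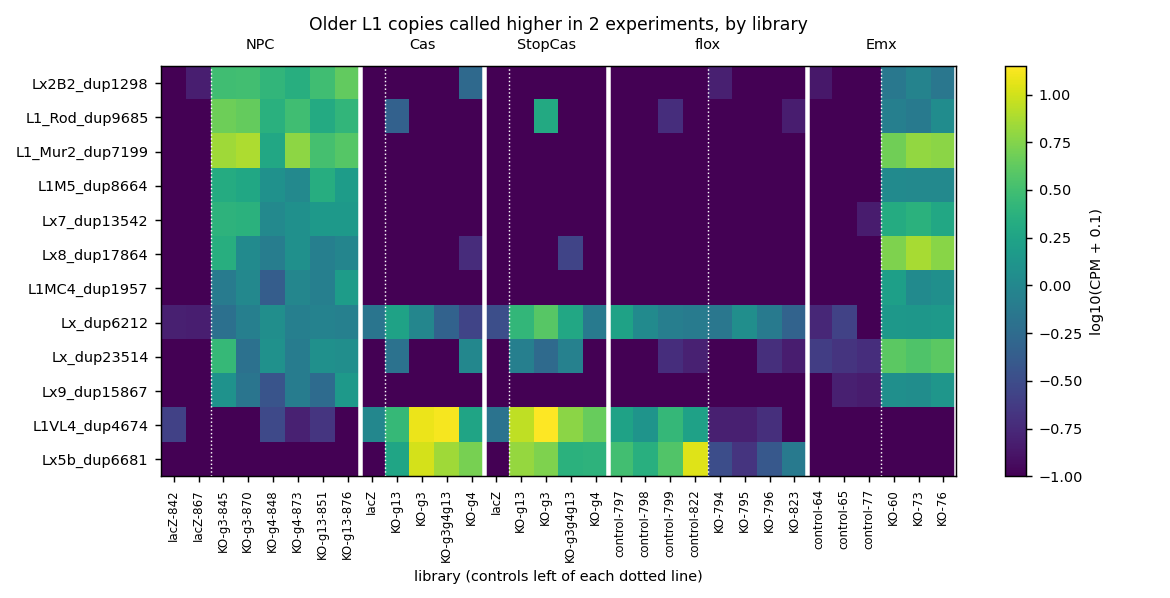
The 10 copies with the smallest adjusted p among those called in both NPC and Emx, and the pair called in Cas and StopCas, by library (log10 of CPM + 0.1, darkest is no read), with controls left of each dotted line. The upper 10 copies have signal in all NPC and Emx KO libraries and little or none in their controls, and L1VL4_dup4674 and Lx5b_dup6681 have it in Cas and StopCas KO libraries and in flox libraries labelled control.

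Older L1 copies that rose often lay beside LTR copies that rose in the same experiment. In NPCs 27 of the 59 higher copies (45.8%) lay within 10 kb of a higher LTR copy, and 12 within 1 kb, against 0.233% of the tested older L1 copies that were not called. In Emx it was 23 of 62 (37.1%), 11 of them within 1 kb, against 0.251%. In Cas it was 4 of 37 (10.8%) against 0.433%. All 4 lie on chromosome Y, and as given below they cannot be told apart from the sex of the animals. No test was made of these shares, since neighbouring copies are not independent. In NPCs 16 higher copies lay over 1000 kb from any higher LTR copy or had none on their chromosome, L1_Rod_dup9685 and Lx8_dup17864 among them. In Emx, however, Lx8_dup17864 lay 0.632 kb from RMER19B2_dup822, an LTR copy that was called there.

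**Figure D4:**
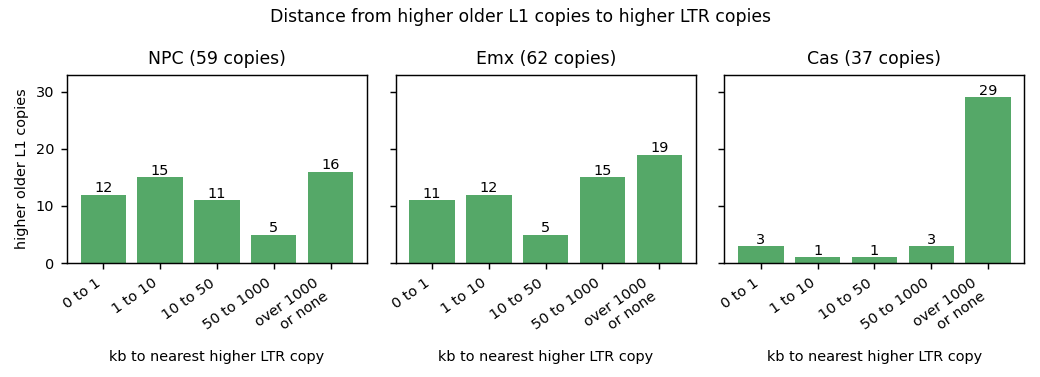
Number of older L1 copies called higher, by distance in kb to the nearest LTR-class copy called higher in the same experiment, for NPC (59 copies), Emx (62) and Cas (37). In NPC and Emx 27 and 23 copies lie within 10 kb, and in Cas 29 of 37 lie over 1000 kb away or have none on their chromosome.

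In sorted adult neuronal nuclei of the Cas9 lines few older L1 copies changed, and those that did rested on 1 control library each. In Cas 37 of 15495 tested copies were called higher and 0 lower (0.163% and 0.00379% of all TE copies), and 0.239% of the older L1 copies. Of tested LTR copies 0.193% were called higher and 0.0044% lower. In StopCas 4 of 17137 were called higher and 0 lower (0.0114% and 0.000881% of all TE copies). The median log2 fold change in Cas was 0.82 over tested older L1 copies and 0.66 over all tested TE copies. In StopCas these medians were 0.56 and 0.41, and the cause of this general rise was not tested. The lone control is assumed to vary like the KO animals. Of the 37, 32 had no read in the Cas control, but 34 of the 37 had 3 or more reads in the StopCas control. The Cas control also had the fewest copies with a read, 18678 against 22897 to 37009 in its KO animals. Of these 32, 5 lie on chromosome Y between 914507 and 1048785 and had reads in KO-g13 and KO-g3 alone, the libraries with reads of the Y-linked gene Ddx3y, while Xist was at 6598 CPM in the control. With 1 control per line, these 5 cannot be told apart from the sex of the animals. In a joint fit of both lines 4 copies were called higher (0.00551% of all TE copies). Without KO-g3g4g13, 159 Cas copies were called higher and 15 lower, without KO-g3 17 were called higher and without KO-g13 24. StopCas kept 2 calls without its KO-g3g4g13 library.

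The 4 copies called in the joint fit were Lx5b_dup6681, L1VL4_dup4674, L1_Rod_dup9472 and L1_Mur3_dup4874. Lx5b_dup6681 (chr15:15741436-15742273, plus strand) had no read in either control and 1.74, 10.1, 6.89 and 5.06 CPM in the Cas KO animals KO-g13, KO-g3, KO-g3g4g13 and KO-g4. In the StopCas KO animals it had 6.34, 5.27, 2.27 and 2.37 CPM in the same order. All 8 KO animals were above both controls, and the mean was at least 20.3-fold and at least 12-fold higher (adjusted p = 4.7e-06 and 0.036). L1VL4_dup4674 (chr13:70253987-70257285, plus strand, 3299 bases) had 0.881 and 0.563 CPM in the Cas and StopCas controls. Its Cas KO values were 2.65, 12.2, 13.1 and 1.69 CPM and its StopCas KO values 8.66, 14.0, 5.84 and 4.36 CPM, all above the controls (log2 fold change 3.06 and 3.84, adjusted p = 0.016 and 0.035).

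L1_Rod_dup9472 (chr15:15863668-15866278, plus strand) had no read in the Cas control and 0.788 CPM in the StopCas control, against 3.84 to 11.8 and 5.14 to 12.5 CPM in KO animals. It passed in Cas (adjusted p = 1.5e-07), and in StopCas had a log2 fold change of 3.37 with adjusted p = 0.11. L1_Mur3_dup4874 (chr3:79648540-79650072), opposite to exons of the relaxin receptor gene Rxfp1, varied widely, with 2.38, 7.27, 1.51 and 19.1 CPM in Cas KO animals. In StopCas KO-g3g4g13 it had 0.087 CPM, below the control at 0.225 CPM. Lx5b_dup3705 (chr9:99539528-99539949) was called in StopCas alone, with 10.0, 3.73, 7.23 and 6.26 CPM in KO animals and no control read, and had reads in 1 Cas animal. Whether the lines differ in it was not tested.

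In flox no older L1 copy passed the test, of 5675 tested (127 at unadjusted p under 0.05). Over all 46810 TE copies 0% were called higher and 0.00641% lower in libraries labelled KO. The copies of chromosomes 13 and 15 had lower values in the libraries labelled KO, which have more Trim28. Lx5b_dup6681 had 3.07, 2.17, 3.58 and 10.9 CPM in the libraries labelled control and 0.222, 0.110, 0.288 and 0.665 CPM in those labelled KO. The groups did not overlap, and the log2 fold change was -3.89 with adjusted p = 0.25. L1VL4_dup4674 had 1.62, 1.20, 2.61 and 1.59 CPM against 0.056, 0.055, 0.096 and 0 CPM (log2 fold change -4.94, adjusted p = 0.072), and L1_Rod_dup9472 had 1.20 to 3.41 against 0.143 to 0.336 CPM (-3.12, adjusted p = 0.17). DESeq2 called 6 older L1 copies lower, these 3 among them with Lx2A_dup1109, Lx2B2_dup9286 and L1MB3_dup799. Of the 6, 4 lie within chr15:15741436-15868372. With control-822 and KO-823 as a block of their own, chosen after seeing the data, edgeR called 8 lower (0.0897% of all TE copies lower and 0.00214% higher). Without control-822 edgeR called 1 copy, and without KO-823 it called 2.

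**Figure D5:**
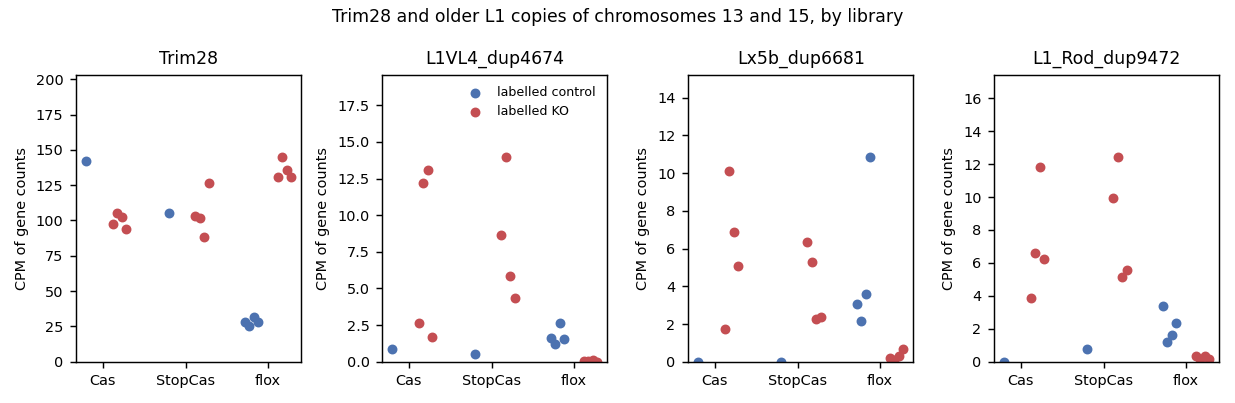
Trim28, L1VL4_dup4674, Lx5b_dup6681 and L1_Rod_dup9472 in CPM of gene counts, for each library of Cas, StopCas and flox as labelled. In Cas and StopCas the 3 copies are higher in KO libraries, and in flox they are higher in the libraries labelled control, which have the lower Trim28, at 25.5 to 31.8 CPM.

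The KO effect as labelled differed between flox and Emx in 4 of 7531 older L1 copies, all higher in Emx (0.0953% of all TE copies higher and 0.0051% lower). These were L1_Rod_dup9472, Lx2B2_dup9286, L1M5_dup2984 and Lx_dup6212. For Lx_dup6212 the groups were 0.079 and 1.30 CPM in Emx controls and KO animals, and 1.00 and 0.678 CPM in flox as labelled. L1_Rod_dup9472 had only 7 reads in the Emx KO animals and 0 in the controls. Lx2B2_dup9286 had 11 and 0, with no read in KO-76. The Emx effects of L1_Rod_dup9472 and Lx2B2_dup9286 were therefore not tested alone. Lx5b was the 1 subfamily of the older L1 that differed, by 1.05 ± 0.26 (SE, adjusted p = 0.049), among 1.91% of all subfamilies higher in Emx, and against NPC 0 differed, among 0.352%.

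Beside Trim28, 19 genes known for L1 or TE silencing were followed, among them Setdb1, the HUSH complex gene Mphosph8, the maintenance DNA methyltransferase Dnmt1 and its partner Uhrf1. Between 16 and 18 of them were tested in each experiment, and 0 passed in any (edgeR). At unadjusted p under 0.05 there were 2 in flox, 2 in Emx and 0 in the others. Over all tested genes, 0.176% were called higher and 0.0182% lower in NPC, 0% and 0% in Cas and StopCas, 0.0117% and 0.0292% in flox, and 0.835% and 0.549% in Emx.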

How the data were processed

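Poly-A selected, stranded paired-end RNA-seq of 32 libraries was used. The authors mapped the reads with STAR 2.6.0 to the mouse genome (GRCm38) and deposited raw counts: TE subfamilies by TEtranscripts, which divides multi-mapped reads, and genes and single TE copies by featureCounts (Subread 1.6.3) from uniquely mapped reads on the annotated strand. Copies in recent, near-identical families therefore lose reads. CUT&RUN and single-nuclei data were not used here, and 6 columns of the copy table that match no sample were left out.

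Each experiment was fitted alone with edgeR 4.0.16 (quasi-likelihood test, R 4.3.3) on all features that passed filterByExpr, with gene-based library sizes for copies and genes and TMM scaling, and Benjamini-Hochberg adjustment over all features. A call needed an adjusted p under 0.05 and an absolute log2 fold change over 0.5. DESeq2 1.42.0, other library sizes, a filter of 10 counts, a replicate block and left-out libraries were alternatives. NPC cultures of 1 number series (lacZ-842 with 3 KO cultures, lacZ-867 with the others) deviated together (r of 0.376 to 0.5 over older L1 copies, 6 pairs of groups). The number series were taken as pairs in the replicate block alone. The main NPC fit, with its fold changes and p-values, left this pairing out. Positions and sequences are from GRCm38.p6. The scripts were tested on simulated data.

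Named copies were those called with KO and control libraries fully separated, the 10 with the largest and 5 with the most negative fold change in NPC and Emx and 3 each elsewhere, and up to 10 copies called in 2 experiments. Copies named outside this rule, such as those of chromosomes 12 and Y, L1MEi_dup274 and L1_Mm_dup4278, were chosen after their values were seen. The members, gene lists and tests were chosen with earlier results of these data known. Floors cover counting error only.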

Additional observations from a re-analysis of the deposited data

Results flagged for a closer look

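Of 33 groups of 4 to 10 libraries checked for a single library far from the rest, 4 had one, where chance gives about 1 in 20. In flox the older L1 share of TE subfamily counts was 21.2% in control-822 and 19.9% in KO-823, each far above the other 3 libraries of its label. In NPC KO cultures, 1 g3 culture stood above the other 5 for Lx8_dup17864 (2.15 CPM) and Lx_dup23514 (2.67 CPM).

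The KO effect in Emx minus that in flox as labelled passed the edgeR interaction test for L1_Rod_dup9472 (log2 difference 7.83), Lx2B2_dup9286 (8.75), L1M5_dup2984 (5.39), Lx_dup6212 (4.54) and the Lx5b subfamily (1.05). L1_Rod_dup9472 and Lx2B2_dup9286 had too few Emx reads to be tested there alone. In flox all libraries labelled KO lay below all labelled control, opposite to the KO effect in Cas and StopCas, for L1VL4_dup4674 (flox log2 fold change -4.94), L1_Rod_dup9472 (-3.12) and Lx5b_dup6681 (-3.89), and the difference from Cas and StopCas was not tested. Trim28 itself was 2.26 higher on the log2 scale in flox libraries labelled KO, while it was lower in KO samples of NPC and Emx. That difference was not tested either.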

How the results depend on the processing

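With the number series of cultures as a replicate block, 94 older L1 copies were called higher in NPC rather than 59. In flox, control-822 and KO-823 as a block, chosen after seeing the data, gave 8 lower rather than 0, and no further paired analysis was possible because the numbers of the other groups pair no samples. Leaving out a library gave 15 to 61 higher in NPC, 17 to 159 higher and 0 to 15 lower in Cas, 2 to 4 higher and 0 to 1 lower in StopCas, 0 to 2 lower in flox and 7 to 15 lower in Emx. Cas subfamilies called higher ranged from 0 to 1 in this way and were 4 with library sizes of the gene rows. The joint fit of both Cas9 lines called 4 copies for Cas. In StopCas DESeq2 called 1 copy, TE-copy library sizes 2 and the filter of 10 counts 2, and 2 of the 4 called copies had 3 or more reads in the Cas control, a count also chosen after seeing the data. In flox DESeq2 called 6 lower and the filter of 10 counts 2. In Emx the filter of 10 counts gave 131 higher and 23 lower, and TE-copy library sizes 23 lower. DESeq2 called 2 copies that differ between NPC and Emx and 15 between flox and Emx. By unique reads the Emx share of older L1 differed by 0.22 percentage points. The cause of these changes was not tested. No named copy or subfamily reversed its direction under the alternatives run. Medians near 0 did change sign: the Emx copy median of -0.02 was 0.02 without control-77 and 0.04 without KO-76, and the flox copy median of 0.04 was -0.02 with TE-copy library sizes. Of the named copies and subfamilies, 165 comparisons stayed on their side of the threshold, 13 were lost and 1 was gained beside the left-out libraries. Of the 12 such comparisons of StopCas copies, 8 were lost. With libraries left out, 281 comparisons of named copies and subfamilies stayed, 30 were lost and 1 was gained. DESeq2 shared 52 of its 68 NPC calls and 14 of its 30 Cas calls with edgeR. Depth limits copies of few reads, and 1 control in each Cas9 line limits every value there.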
